A study of Rattus norvegicus with 48 samples.

Results

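The state of rat brain cell cultures after HIV Tat, cocaine and 4-octyl itaconate (4OI, a form of itaconate that enters cells) was compared with that of untreated cultures across all genes. The libraries were chosen by their treatment labels: 3 Tat-Cocaine-4OI and 3 Control libraries, of 48 in the series. The question was which of the changes seen after Tat and cocaine were still there when 4OI had been given, and which changes appeared with it. The model also held the Cocaine, Tat, Tat-Cocaine, 4OI and Tat-4OI libraries, 21 in 7 groups, and tested 15609 of the 30211 genes listed. The cultures were mixed neuronal cultures made from Sprague-Dawley rat fetuses at 18 days and used after 21 days in vitro.

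Control cultures received none of the agents. Cocaine cultures received 25 µM cocaine for 24 h, Tat cultures 6 ng/mL HIV Tat (1-86) for 48 h, and Tat-Cocaine cultures both. The study describes the 24 h of cocaine as following the 48 h of Tat or 4OI. Whether groups without cocaine were held for the same total time is not stated, so cocaine and time in culture cannot be told apart. The 4OI, Tat-4OI and Tat-Cocaine-4OI groups had 250 µM 4OI for 48 h, alone or with those agents, so that Tat-Cocaine-4OI carried all 3. 4OI was dissolved in DMSO, and whether the other cultures received DMSO is not given in the sources used here, so compound and solvent cannot be told apart. Nothing in the labels says that the 3 replicates of a group came from separate animals, so p-values measure the spread between these samples, which may be technical.

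Itaconate is made from a Krebs cycle intermediate by the enzyme Acod1, chiefly in activated macrophages and microglia. Its octyl ester modifies cysteines on Keap1, which frees the transcription factor Nrf2 to switch on genes of glutathione, NADPH and iron metabolism, and it also restrains parts of the inflammatory response. Tat is a protein that HIV-infected cells release, and it drives NF-kB signalling and acute-phase and chemokine genes in glia. Microglia are the macrophages of the brain tissue itself, while border macrophages, which carry the scavenger receptor Cd163 and the hyaluronan receptor Lyve1, sit in the meninges and around vessels.

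The labels call the cells neurons. Summed over 5 markers each, astrocyte markers stood at 6325 to 7147 in Control on the scaled CPM unit of the table (reads relative to library depth) and 6027 to 10020.0 in Tat-Cocaine-4OI, and neuron markers at 1520.0 to 2107 and 791 to 1679. Microglia, oligodendrocyte and border macrophage markers were present, and T and B lymphocyte markers were near 0 (at most 0.292). The Tat-Cocaine-4OI replicate 2 stood apart from the other two (Pearson r of log2 values 0.96 and 0.98, against 0.99 between replicates 1 and 3). It held the lowest neuron sum (791, against 1394 to 1679) and the highest microglia sum (528, against 118 and 188). The Cocaine replicate 3 held oligodendrocyte markers at 24620, against at most 2180.0 in the other 20, and it entered the spread of the model. Leaving out Tat-Cocaine-4OI replicate 2 took the 1295 genes called in Tat-Cocaine-4OI against Control to 680, and leaving out Cocaine replicate 3, an alternative added after the data were seen, took them to 1532. In bulk libraries, fewer cells of a type and less RNA per cell cannot be told apart. The plot of marker sums shows these values by library.

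**Figure D1:**
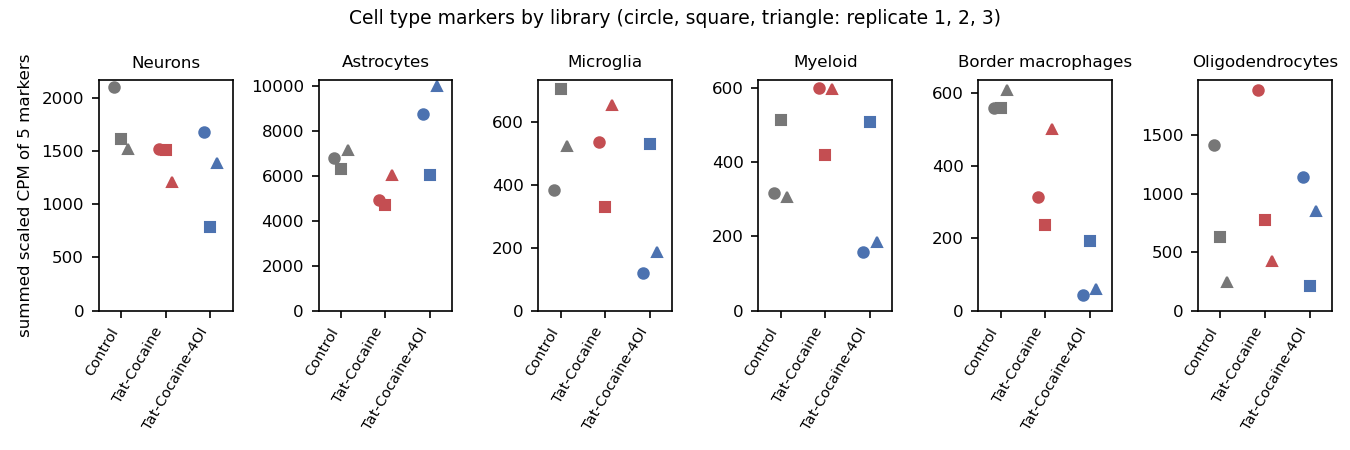
Summed scaled CPM of 5 markers for each of 6 cell types (y axes, linear, from 0) in the 3 Control, 3 Tat-Cocaine and 3 Tat-Cocaine-4OI libraries (x axis); circle, square and triangle are replicates 1, 2 and 3. Tat-Cocaine-4OI replicate 2 has the lowest neuron sum of its group (791) and the highest microglia sum (528), and the border macrophage sums of all 3 Tat-Cocaine-4OI libraries (43 to 192) lie under those of Control (559 to 608).

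Tat-Cocaine-4OI cultures differed from Control cultures at 1295 genes by limma at a false discovery rate (FDR) under 0.05: 846 (5.42% of genes tested) were higher and 449 (2.88%) lower. Tat-Cocaine cultures without 4OI differed at 1463 genes, 797 higher (5.11%) and 666 lower (4.27%). Set directly against Tat-Cocaine, the cultures with 4OI differed at 559 genes, 354 higher (2.27%) and 205 lower (1.31%). Against Cocaine, a reference with other libraries, 792 genes were higher (5.07%) and 507 lower (3.25%). Against Tat-4OI, which had no cocaine and may also differ in total time, limma called 0 genes (0%), with 985 at an unadjusted p under 0.05.

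For Tat-Cocaine-4OI against Control, leaving out Control replicate 1 or 2 took the 1295 calls to 672 or 843, and leaving out Tat-Cocaine-4OI replicate 2 or 3 took them to 680 or 734. The direction depended on the scale: rescaling the libraries to an equal sum turned the split against Control from 846 higher and 449 lower to 501 and 668, and that against Tat-Cocaine from 354 and 205 to 220 and 282. Against Cocaine the share of calls that were higher moved from 61% to 47%. The 3 libraries of Tat-Cocaine-4OI did not overlap those of Control at 27.2% of all genes tested, so lack of overlap alone marks little.

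Of the 1463 genes changed by Tat and cocaine, 550 (37.6%) were still changed in the same direction with 4OI, 334 higher and 216 lower. They made up 42.5% of the 1295 calls against Control. For 527 of them no difference from Tat-Cocaine was called. A further 19 had moved part of the way back, and 4 had moved further from Control. The median log2 difference of the 334 higher genes was 0.91 with 4OI and 0.91 without it, and that of the 216 lower genes was -0.90 and -0.96, beside a median of 0.01 over all genes tested. Genes that lost their call against Control with 4OI were placed in other classes, so the definition holds these medians near each other. Both comparisons used the same Control libraries, so these counts are a description. The 550 became 317 when Control replicate 1 was left out, 350 for replicate 2 of Tat-Cocaine and 326 for replicate 2 of Tat-Cocaine-4OI, it was 886 with a replicate block, and the split of 334 higher and 216 lower became 237 and 283 with libraries rescaled to an equal sum.

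**Figure D2:**
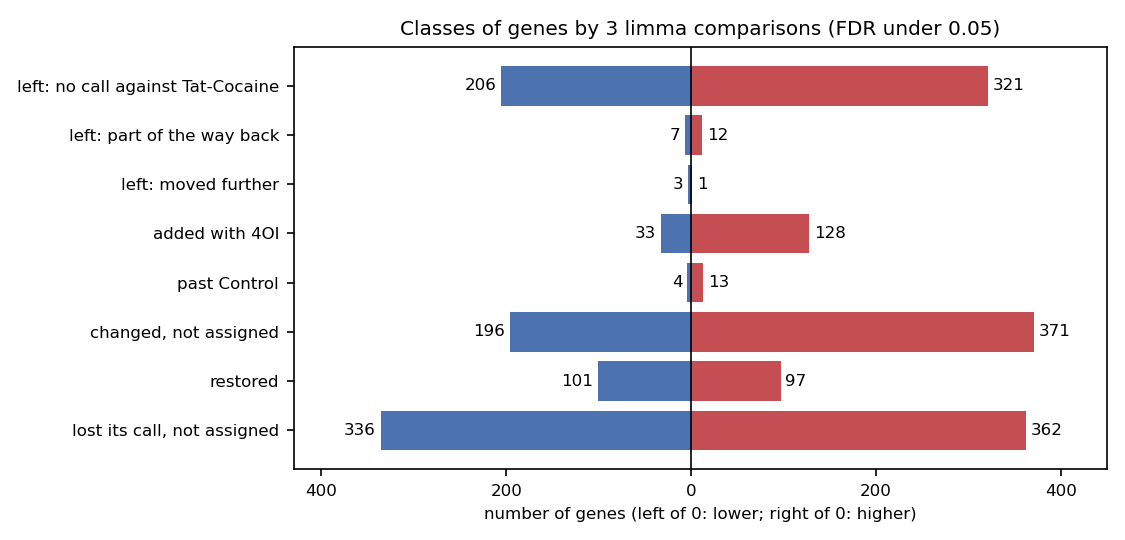
Number of genes (x axis, lower to the left of 0 and higher to the right) in each class by the limma calls of Tat-Cocaine against Control, Tat-Cocaine-4OI against Control and Tat-Cocaine-4OI against Tat-Cocaine; for the restored and lost-call rows the direction is that of Tat-Cocaine. The largest assigned class is that of 321 higher and 206 lower genes left changed with no call against Tat-Cocaine, while 128 higher and 33 lower genes were added.

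Of 14 acute-phase and secreted defence genes tested, 8 were higher than Control with 4OI and 0 lower (median log2 1.82), against 10 without it. Over all genes tested 5.42% were higher and 2.88% lower with 4OI, and each list count below is to be read beside these shares. The direct comparison called 3 of the 14 lower with 4OI, and 2 were among the genes called restored. Without Control replicate 1 or Tat-Cocaine-4OI replicate 2, 5 were called. Orm1 (alpha-1-acid glycoprotein) stood at 0.422, 1.18 and 0.272 in Control, at 53.9, 235 and 678 in Tat-Cocaine and at 73.9, 333 and 157 in Tat-Cocaine-4OI. Its Control values lay under every treated library, and the treated groups overlapped. The log2 difference from Control was 7.21 ± 0.70 (SE, n = 3 and 3, limma FDR 1.71e-05). Lcn2 (lipocalin 2, which binds bacterial iron carriers) was at 94.7, 315 and 33 in Control and at 3631, 8458 and 4966 in Tat-Cocaine-4OI, a rise of 5.74 ± 0.86 (FDR 0.000725), with 3676, 6585 and 12511 in Tat-Cocaine. Outside that list, Angptl4, an inhibitor of lipoprotein lipase, rose from 5.18, 10.1 and 4.68 to 219, 382 and 248 (5.35 ± 0.48, FDR 1.10e-05), where Tat-Cocaine had 151, 357 and 268. The treated groups overlapped for both genes and stood clear of Control.

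Of 27 cytokine and chemokine genes, 11 were higher than Control with 4OI and 0 lower (median 1.82), and 17 were higher without it. The direct comparison called 3 of them lower with 4OI than without, and 6 of the 11 calls stayed without Tat-Cocaine-4OI replicate 2. Cxcl1, a neutrophil attractant, was at 2.07, 7.11 and 2.45 in Control, 73.3, 259.5 and 204 in Tat-Cocaine and 84.3, 217 and 78.9 in Tat-Cocaine-4OI (4.88 ± 0.64 against Control, FDR 0.000227). Ccl2, a monocyte attractant, was at 12.6, 90.0 and 15.7 in Control, 319, 974 and 737 in Tat-Cocaine and 218, 448 and 194 in Tat-Cocaine-4OI (3.32 ± 0.65, FDR 0.00458). Both genes overlapped between the treated groups and lay above Control. Ccl20, an attractant of Ccr6-bearing cells, went part of the way back: Control held 0.383, 1.27 and 0.182, Tat-Cocaine 38.6, 172 and 156, and Tat-Cocaine-4OI 7.54, 23.4 and 10.4. It lay 3.64 ± 0.56 above Control (FDR 0.000811) and differed from Tat-Cocaine by -3.00 (FDR 0.00537), with no overlap between any of the 3 groups.

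Ccl5, a T cell attractant, and Slpi, a protease inhibitor, had the same order of levels. Ccl5 was 2.90 above Control (FDR 0.00261) and differed from Tat-Cocaine by -2.15 (FDR 0.0303). Slpi was 3.16 above Control (FDR 0.00694) and differed from Tat-Cocaine by -3.20 (FDR 0.0109). For Il1b the difference from Control with 4OI was 1.82 (FDR 0.0849) and for Il6 it was 2.00 (FDR 0.0529), neither past the threshold. Acod1, which makes itaconate, was at 0.115, 0.539 and 0.454 in Control, 1.66, 10.8 and 29 in Tat-Cocaine and 1.26, 6.59 and 2.43 in Tat-Cocaine-4OI. Its difference from Control was called without 4OI (3.40, FDR 0.0179) and missed the threshold with it (1.97, FDR 0.168), and the direct difference between the treated groups was not called (-1.43, FDR 0.413).

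Among 20 genes of NF-kB subunits and their feedback, 7 were higher than Control with 4OI and 11 without it. The direct comparison called 0 of the 20 in either direction, so a change with 4OI was not shown for any of them. Of the 7, 4 were called without Control replicate 1 or Tat-Cocaine-4OI replicate 2. Nfkbiz, a nuclear co-activator of NF-kB, was 2.43 ± 0.39 above Control (FDR 0.00123), and Zc3h12a, an RNase that cuts cytokine messengers, 1.98 ± 0.37 (FDR 0.00342). Of 7 MHC class II genes, which present peptides to CD4 T cells, 3 were higher than Control with 4OI and 7 without it, and the direct comparison called 4 lower with 4OI. RT1-Da held 0.230, 0.441 and 0.227 in Control, 14.9, 22.6 and 15.1 in Tat-Cocaine and 1.64, 4.66 and 1.69 in Tat-Cocaine-4OI. It was thus between the other groups with no overlap, 1.86 ± 0.33 above Control (FDR 0.00233) and different from Tat-Cocaine by -2.62 (FDR 0.000212). Its class II partner RT1-Db1 was 1.5 above Control (FDR 0.0165), a call that was lost without Control replicate 1 or 3 or Tat-Cocaine-4OI replicate 2. B2m, the light chain of MHC class I, rose by 1.5 ± 0.25 (FDR 0.00161), and it was the 1 gene called of 15 in the MHC class I list, against 5 without 4OI. Over all genes tested 5.42% were higher. The direct comparison called 1 of the 15 lower with 4OI. Without Control replicate 2, 3 of the 15 were called against Control. Of 26 interferon-stimulated genes 3 were higher than Control without 4OI (median 0.86), and the direct comparison called 2 lower with it (median -1.13). Against Control 0 of the 26 passed in either direction with 4OI, and the median of that comparison depended on 1 library. It was -0.33, and 5 were called lower without Control replicate 1. Without Control replicate 2 it was 0.24, with 1 called higher.

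Mitochondrial superoxide dismutase, Sod2, is an antioxidant enzyme that NF-kB induces. It stood at 175, 398 and 149 in Control, 1847, 3078 and 4270.3 in Tat-Cocaine and 1779.8, 3550.5 and 2043 in Tat-Cocaine-4OI. The rise against Control was 3.42 ± 0.39 (FDR 7.84e-05), and the treated groups overlapped.

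Of 17 reactive astrocyte genes, 9 were higher than Control with 4OI (median 0.70), and 5 without Tat-Cocaine-4OI replicate 2. Osmr, a receptor subunit for oncostatin M, was at 20.7, 28.6 and 20.2 in Control and 101, 219 and 119 in Tat-Cocaine-4OI (2.57 ± 0.36, FDR 0.000411), with 97.5, 193 and 269 in Tat-Cocaine. In the list of astrocyte genes 8 of 24 were lower than Control and 0 higher, against 10 lower without 4OI, and the direct comparison called 4 higher with 4OI. The 8 fell to 5 without Control replicate 1, to 4 without Control replicate 3 and to 3, with 1 higher, without Tat-Cocaine-4OI replicate 2. Ntsr2, a neurotensin receptor of astrocytes, was at 143, 129 and 152 in Control, 35.9, 13.9 and 14.2 in Tat-Cocaine and 46, 24.8 and 49.2 in Tat-Cocaine-4OI (-1.87 ± 0.35, FDR 0.00339). Every treated library lay under every Control library, and the treated groups overlapped. Agt (angiotensinogen) fell by 1.94 ± 0.36 (FDR 0.00307). Gfap, the astrocyte filament, did not pass against Control (0.40, FDR 0.328) and was higher than in Tat-Cocaine (0.89, FDR 0.0487).

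Selenop, a secreted protein that carries selenium, was at 623, 614 and 615 in Control, 219, 89.5 and 214 in Tat-Cocaine and 53.5, 82.8 and 63.3 in Tat-Cocaine-4OI. The 3 groups did not overlap, and the fall from Control was 1.93 on the log2 scale without 4OI (FDR 0.000815) and 3.23 ± 0.31 with it (FDR 1.61e-05). The step from Tat-Cocaine was -1.29 (FDR 0.0277). Cfd, the complement factor D protease, had 50.2, 47 and 49.5 in Control, 19, 12.4 and 19.3 in Tat-Cocaine and 2.20, 7.81 and 3.27 in Tat-Cocaine-4OI, and its differences from Control were -1.53 (FDR 0.0401) and -3.49 (FDR 0.000194). Cfd, like Selenop, was thus among the 4 genes that moved further from Control. The third that moved lower was AABR07021972.2. Ccdc152 overlaps Selenop in the RefSeq annotation, and its fall (-3.04, FDR 2.31e-05) is uncertain for that reason. Gmnc, a regulator of the programme that builds motile cilia, was at 19.9, 14.7 and 27.9 in Control, 2.04, 1.27 and 1.05 in Tat-Cocaine and 3.04, 2.97 and 3.22 in Tat-Cocaine-4OI (-2.53 ± 0.29, FDR 8.08e-05). It was the 1 called gene of 23 in the motile cilium list, where 2.88% of all genes tested were lower (2 were called without Tat-Cocaine replicate 3).

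**Figure D3:**
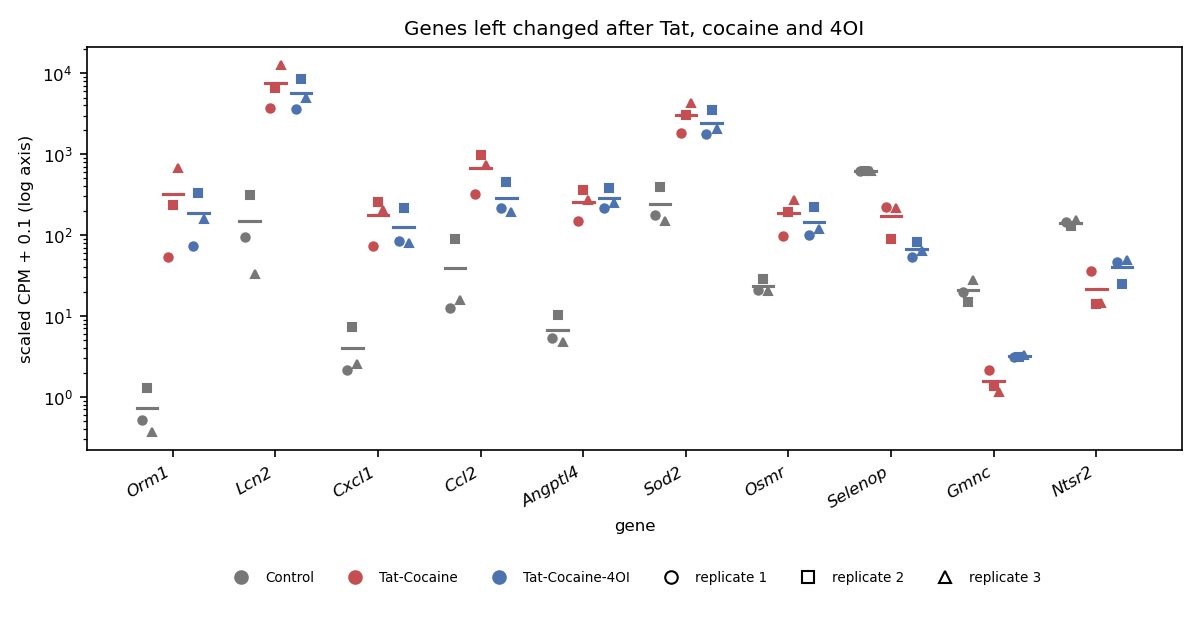
Scaled CPM plus 0.1 (y axis, log scale) of 10 genes left changed, in each Control, Tat-Cocaine and Tat-Cocaine-4OI library; symbols are replicates and bars group means. Orm1, Lcn2, Cxcl1, Ccl2, Angptl4, Sod2 and Osmr lie above Control in all treated libraries, Selenop, Gmnc and Ntsr2 lie below it, and in most of these genes Tat-Cocaine and Tat-Cocaine-4OI overlap.

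Genes added with 4OI were those called against Control and against Tat-Cocaine in the same direction and not called in Tat-Cocaine against Control. There were 161, 128 higher and 33 lower, with median log2 differences from Control of 0.77 and -1.18 with 4OI and of -0.02 and -0.07 without it. The calls that define them fix these medians. In Tat-4OI against Tat, groups that the definition does not compare, 87 of the 128 were called higher, where 3.22% of all genes tested were, and 18 of the 33 lower, where 4.89% were. The spread of each gene came from all 21 libraries in every comparison, so these calls are not independent of the definition. In 4OI against Control, which shares the Control libraries, 74 of the 128 were higher (1.27% of all genes) and 4 of the 33 lower (0.141%). The 161 became 98 when replicate 1 of Tat-Cocaine was left out and 87 for replicate 3 of Tat-Cocaine-4OI, it was 287 with a replicate block, and with libraries rescaled to an equal sum the split of 128 higher and 33 lower became 82 and 56.

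Nrf2 targets were prominent among the added genes. Of 29 tested, 23 were higher than Control with 4OI and 0 lower (median 0.90), against 1 higher and 3 lower without 4OI, and the direct comparison called 21 higher. Of the 29, 15 were added genes, as were 161 of all 15609 genes tested. The list had 21 members higher in Tat-4OI against Tat and 20 in 4OI against Control.

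Among enzymes of heme, quinones and iron, Hmox1, the heme oxygenase, was at 135, 201 and 145 in Control, 172, 214 and 237 in Tat-Cocaine and 1348, 845 and 1034 in Tat-Cocaine-4OI, 6.71 times the Control mean. The log2 rise was 2.74 ± 0.29 against Control (FDR 3.15e-05) and 2.36 against Tat-Cocaine (FDR 0.000158). Nqo1, a quinone reductase, had 87.1, 106 and 116 in Control, 109, 143 and 114 in Tat-Cocaine and 439, 512 and 402 in Tat-Cocaine-4OI (2.12 ± 0.16, FDR 1.22e-06). In both genes all Tat-Cocaine-4OI libraries stood clear of Control and Tat-Cocaine. Fth1, the ferritin heavy chain that stores iron, was at 3139, 3967 and 3504 in Control and 9529, 11299 and 8769 in Tat-Cocaine-4OI (1.48 ± 0.20, FDR 0.000317).

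Among genes of glutathione and NADPH supply, Slc7a11, the cystine importer, was at 41.7, 66.3 and 80.1 in Control, 49.4, 68.6 and 75.0 in Tat-Cocaine and 429, 331 and 332 in Tat-Cocaine-4OI (2.57 ± 0.38, FDR 0.000586). Taldo1, a pentose phosphate enzyme, went from 115, 160.2 and 144 in Control and 161, 171 and 171 in Tat-Cocaine to 671, 643 and 603 (2.20 ± 0.13, FDR 8.96e-08), the lowest FDR of the genes described here. Neither gene overlapped between Tat-Cocaine-4OI and Control or Tat-Cocaine. Gstp1, a glutathione transferase, had 246, 330.0 and 277 in Control, 359, 402 and 194 in Tat-Cocaine and 1006, 1178 and 828 in Tat-Cocaine-4OI (1.81 ± 0.37, FDR 0.00596).

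Gclm, the regulatory subunit of glutamate-cysteine ligase, stood at 34.8, 39.2 and 38.1 in Control, 33, 33 and 28.1 in Tat-Cocaine and 133, 92.1 and 115 in Tat-Cocaine-4OI (1.57 ± 0.23, FDR 0.000544). Its catalytic partner Gclc behaved otherwise: it was at 163, 172 and 221 in Control, 100.3, 104 and 91.3 in Tat-Cocaine and 165, 167 and 158 in Tat-Cocaine-4OI. Gclc fell without 4OI (-0.90, FDR 8.49e-05), was higher with 4OI than without (0.73, FDR 0.00101) and did not pass against Control with it (-0.17, FDR 0.374). Catalase, Cat, was at 119.9, 136 and 125 in Control and 261, 240.0 and 225 in Tat-Cocaine-4OI (0.93 ± 0.10, FDR 4.99e-05), and Gss (glutathione synthetase) rose by 1.05 ± 0.13 (FDR 0.000181). Of 21 other antioxidant genes, 6 were higher and 1 lower than Control, and 3 and 1 without Tat-Cocaine-4OI replicate 2 or 3 or with libraries rescaled to an equal sum. The lower one was Gpx3, a secreted glutathione peroxidase (-2.68 ± 0.49, FDR 0.00297).

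Nrf2 with small Maf proteins binds the antioxidant response element, searched here on both strands as TGACNNNGC, with N any base. The RefSeq promoters (build GRCr8, 250 bases before to 50 after the gene start) of Gstp1 and Gclm are printed because both genes were added with 4OI and their windows hold the letters, in capitals. Gstp1 lies on the minus strand at chr1:210769656-210769955 and its match starts 61 bases before the gene start. Gclm lies on the plus strand at chr2:213031885-213032184 and its match, on the opposite strand, starts 172 bases before.
Gstp1: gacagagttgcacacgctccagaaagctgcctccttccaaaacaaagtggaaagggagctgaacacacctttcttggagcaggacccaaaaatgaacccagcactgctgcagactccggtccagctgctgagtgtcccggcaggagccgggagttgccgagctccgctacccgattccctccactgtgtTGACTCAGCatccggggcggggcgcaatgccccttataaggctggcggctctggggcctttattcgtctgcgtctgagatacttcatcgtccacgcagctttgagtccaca
Gclm: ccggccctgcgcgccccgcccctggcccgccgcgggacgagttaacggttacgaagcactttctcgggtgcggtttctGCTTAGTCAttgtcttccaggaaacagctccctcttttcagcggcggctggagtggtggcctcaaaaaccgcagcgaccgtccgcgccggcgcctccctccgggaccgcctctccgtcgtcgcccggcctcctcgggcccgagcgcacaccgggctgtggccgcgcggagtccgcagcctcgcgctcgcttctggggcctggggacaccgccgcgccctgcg
The share of promoters with these letters among the added genes was near that of all genes tested: they were in 15 of 96 matched promoters of genes added higher (15.6%), in 39 of 264 of genes left higher (14.8%) and in 1631 of 11104 of all genes tested (14.7%). In the Nrf2 list they were in 6 of 23 (26.1%). A match is a description of the letters in this window and not a binding site.

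Outside the Nrf2 list, Spata48, at 0.153, 0.147 and 0.227 in Control, was at 5.76, 3.67 and 4.06 in Tat-Cocaine-4OI (2.87 ± 0.33, FDR 8.08e-05), with 0.128, 0.327 and 0.0805 in Tat-Cocaine. Its change was about the same in 4OI against Control (2.88, FDR 8.20e-05) and in Tat-4OI against Tat (2.82, FDR 9.27e-05). Dlk1, a transmembrane protein of the Notch ligand family, rose by 2.30 ± 0.33 (FDR 0.000573) and was not called in 4OI against Control (0.27, FDR 0.914). Lgals3 (galectin 3) was at 78.1, 97.7 and 89.1 in Control, 117, 102 and 158 in Tat-Cocaine and 194, 263 and 269 in Tat-Cocaine-4OI (1.44 ± 0.22, FDR 0.000768). Bag3, a co-chaperone, rose by 0.81 ± 0.14 (FDR 0.00179), and 5 of 15 heat shock genes were higher and 1, Cryab, lower than Control. The 5 became 2 without Control replicate 1 or with libraries rescaled to an equal sum, and 3 without any 1 of the other Control or Tat-Cocaine-4OI libraries.

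Lower with 4OI were genes of border macrophages: 7 of 11 tested were lower than Control and 0 higher (median -2.75), against 1 lower and 1 higher without 4OI, and the direct comparison called 5 lower. The 7 fell to 5 without Tat-Cocaine-4OI replicate 1 or 3. Cd163 was at 63, 40.4 and 40.8 in Control, 16.6, 19.9 and 25.5 in Tat-Cocaine and 0.234, 0.0583 and 0.0496 in Tat-Cocaine-4OI, with no overlap between the groups. The last values are worth about 5, 1 and 1 reads, so the Control mean was 422 times that of Tat-Cocaine-4OI with a 95% counting interval (exact Poisson) of 205 to 1050 times, which covers counting error only. On the log2 scale the fall was -6.29 ± 0.58 (FDR 1.12e-05), and -5.10 against Tat-Cocaine (FDR 7.58e-05). Lyve1 was at 148, 151 and 168 in Control, 107, 43 and 106 in Tat-Cocaine and 2.85, 14.2 and 4.63 in Tat-Cocaine-4OI (-4.62 ± 0.54, FDR 8.46e-05). Fcna, a ficolin that recognises microbial sugars, had 121, 88.8 and 78.5 in Control, 70.4, 22.6 and 21.7 in Tat-Cocaine and 3.04, 7.11 and 2.48 in Tat-Cocaine-4OI (-4.46 ± 0.52, FDR 8.08e-05). For Lyve1, as for Fcna, the Tat-Cocaine-4OI libraries lay under all Control and Tat-Cocaine libraries. They overlapped those of Tat-4OI, at 12.5, 24.1 and 4.52 for Lyve1 and 20.3, 18.1 and 4.87 for Fcna. Cd163 was at 8.11, 2.21 and 11.5 in Tat and 0.428, 1.67 and 0.487 in Tat-4OI. In Tat-4OI against Tat 6 of the 11 genes were lower, where 4.89% of all genes tested were. In 4OI against Control 0 of the 11 were called.

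The mannose receptor Mrc1 was at 229, 257 and 279.9 in Control, 124, 137 and 269.8 in Tat-Cocaine and 26.9, 131 and 34.7 in Tat-Cocaine-4OI (-2.34 ± 0.55, FDR 0.0142), and its call was lost without Tat-Cocaine-4OI replicate 1 or 3. The folate receptor Folr2 followed it (-1.79, FDR 0.02), a call lost without Control replicate 1 or 2 or Tat-Cocaine-4OI replicate 1 or 3. Pf4, a platelet-type chemokine that border macrophages also carry, was already low without 4OI (-2.08, FDR 0.00812) and was at -3.07 with it (FDR 0.000655). Tlr5, the flagellin receptor, was at 45.2, 49.5 and 61.9 in Control, 25.1, 14.6 and 29.3 in Tat-Cocaine and 2.95, 7.38 and 2.18 in Tat-Cocaine-4OI (-3.65 ± 0.47, FDR 0.000198). Ccr1, a chemokine receptor, fell by 2.97 ± 0.42 (FDR 0.000411), and Tnfsf10, the death ligand TRAIL, by 2.39 ± 0.32 (FDR 0.000279). Islr (meflin, a marker of mesenchymal stromal cells) fell from 31.6, 43.6 and 48.6 in Control and 39.7, 25 and 54.1 in Tat-Cocaine to 3.74, 3.44 and 5.55 (-3.14 ± 0.33, FDR 3.15e-05).

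Of 19 pan-myeloid genes 0 passed against Control in either direction (median 0.02, a sign that turned when libraries were rescaled to an equal sum), with 1 lower without Tat-Cocaine-4OI replicate 2. That median depended on single libraries: it was -0.49 without Tat-Cocaine-4OI replicate 2 and 0.41 without replicate 1, so it does not show an unchanged level. Of 14 homeostatic microglia genes 1 was lower (median -0.58), a call lost when any 1 of the Control libraries or Tat-Cocaine-4OI replicate 1 or 3 was left out. Itgam, the integrin CD11b of all myeloid cells, was at 0.05 (FDR 0.960). The summed microglia markers were 384, 704 and 523 in Control and 118, 528 and 188 in Tat-Cocaine-4OI. The summed pan-myeloid markers were 316, 513 and 306 in Control and 157, 508 and 184 in Tat-Cocaine-4OI. In both sums Tat-Cocaine-4OI replicates 1 and 3 lay under every Control library. Divided by Itgam in the same library, Cd163 was 1.00, 0.396 and 0.576 in Control, 0.0953, 0.165 and 0.137 in Tat-Cocaine and 0.00481, 0.000341 and 0.000813 in Tat-Cocaine-4OI. Lyve1 over Itgam was 2.36, 1.48 and 2.38 in Control and 0.0587, 0.0828 and 0.0760 in Tat-Cocaine-4OI. In these 2 genes every Tat-Cocaine-4OI ratio, replicate 2 included, lay under those of Control and Tat-Cocaine. So did Folr2 over Itgam, at 0.298, 0.25 and 0.395 in Tat-Cocaine and 0.163, 0.202 and 0.221 in Tat-Cocaine-4OI. Mrc1 and Pf4 over Itgam lay under Control, but the treated groups overlapped. Mrc1 gave 0.714, 1.13 and 1.45 in Tat-Cocaine and 0.553, 0.764 and 0.569 in Tat-Cocaine-4OI. Pf4 gave 0.0794, 0.0596 and 0.145, then 0.1, 0.0702 and 0.0878.

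Other macrophage genes also had lower ratios to Itgam. Itgam itself was at 62.8, 102 and 70.8 in Control, 174, 121 and 186 in Tat-Cocaine and 48.7, 171 and 61 in Tat-Cocaine-4OI. It was thus higher in Tat-Cocaine than in Control, and a ratio to it can be lower there without a fall of the gene divided. Csf1r, the receptor for the growth factor of these cells, gave 4.82, 4.46 and 5.41 in Control, 2.08, 1.68 and 2.07 in Tat-Cocaine and 1.34, 1.66 and 1.71 in Tat-Cocaine-4OI. Tyrobp, a signalling adaptor, gave 0.877, 1.03 and 0.866, then 0.636, 0.634 and 0.504, then 0.586, 0.495 and 0.506. Both lay under Control in all treated libraries, and the treated groups overlapped. Over Itgam, Aif1, a calcium-binding protein of these cells, gave 0.670, 1.19 and 0.966 in Control and 0.615, 0.927 and 0.789 in Tat-Cocaine-4OI, which overlapped. The differences from Control that the model gave were -1.59 for Csf1r (FDR 0.0553), -0.74 for Tyrobp (FDR 0.371) and -0.20 for Aif1 (FDR 0.887), none past the threshold. Whether Cd163 and Lyve1 changed more than these genes was not tested.

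Whether 4OI lowered the border macrophage genes more after Tat and cocaine than in untreated cultures was tested by the interaction. For Cd163 the change with 4OI was -5.10 in the Tat-Cocaine cultures, -2.38 in the Tat cultures (FDR 0.0185) and -1.59 in untreated ones (FDR 0.258), and the interaction of the first and the last was -3.51 (FDR 0.213). That of Lyve1 was -2.30 (FDR 0.560), and that of Hmox1 -0.44 (FDR 0.977). Across all genes limma called 2 interactions (0.0128%), with 1068 at an unadjusted p under 0.05.

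**Figure D4:**
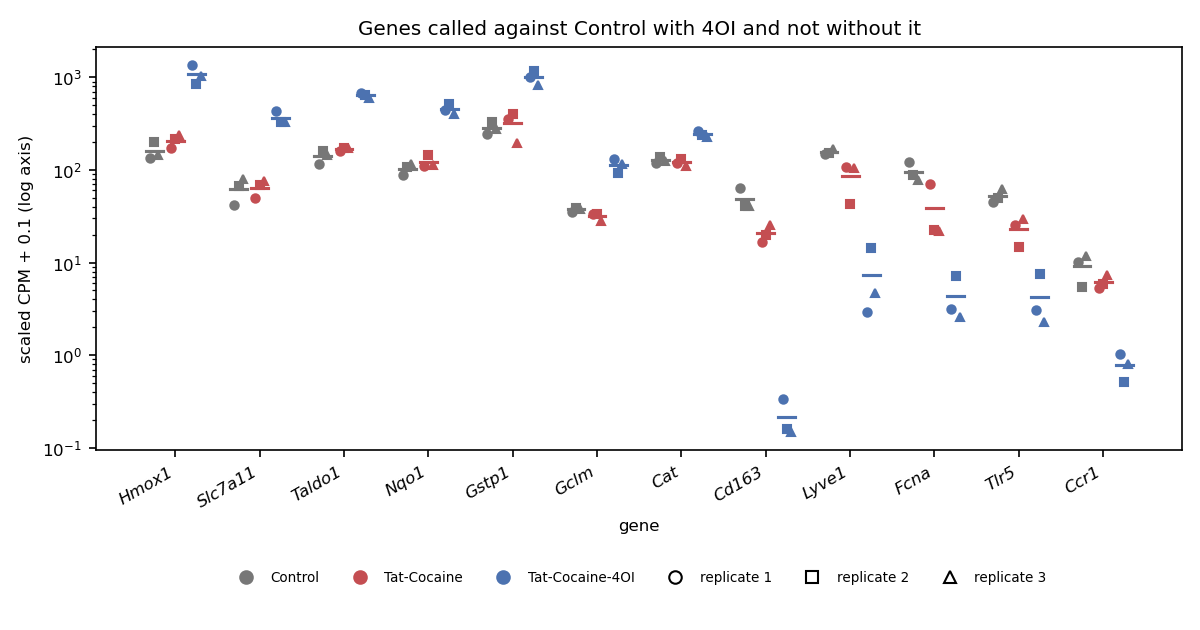
Scaled CPM plus 0.1 (y axis, log scale) of 12 genes added with 4OI, in each Control, Tat-Cocaine and Tat-Cocaine-4OI library; symbols are replicates and bars group means. Hmox1, Slc7a11, Taldo1, Nqo1, Gstp1, Gclm and Cat lie above the other groups with 4OI, and Cd163, Lyve1, Fcna, Tlr5 and Ccr1 below them.

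A group of 17 genes crossed over: they were changed by Tat and cocaine in 1 direction and stood on the other side of Control with 4OI, 13 higher and 4 lower. Aox1, an aldehyde oxidase, was at 83.7, 82.8 and 122 in Control, 56.8, 55.5 and 61.3 in Tat-Cocaine and 185, 216 and 249 in Tat-Cocaine-4OI. It differed from Control by -0.71 without 4OI (FDR 0.0084) and by 1.18 ± 0.15 with it (FDR 0.000235). Rarres1, a retinoic acid-induced gene, took the reverse course, with 71.4, 55.6 and 73.5 in Control, 189, 97.9 and 238 in Tat-Cocaine and 15.5, 28 and 22.8 in Tat-Cocaine-4OI. Its differences from Control were 1.30 (FDR 0.0117) and -1.60 ± 0.30 (FDR 0.00349). In both genes the 3 groups did not overlap.

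Restored genes, called in Tat-Cocaine, called back the other way by 4OI and not called against Control with it, numbered 198. The 97 that had risen went from a median of 1.35 to 0.07, and the 101 that had fallen from -0.72 to -0.02. The calls that define the restored genes fix these medians. A missed threshold does not show a return to Control: the 95% interval of the remaining difference lay within 1 log2 unit for 159 of the 198 and within 2 units for 192. The count became 85 when replicate 2 of Tat-Cocaine was left out and 82 for replicate 3 of Tat-Cocaine-4OI, and it was 397 with a replicate block. With libraries rescaled to an equal sum it held 118 genes that had risen and 66 that had fallen.

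Ptges, the prostaglandin E synthase, was at 0.652, 0.834 and 0.227 in Control, 7.37, 46.3 and 31.2 in Tat-Cocaine and 1.08, 4.2 and 1.14 in Tat-Cocaine-4OI. Its remaining difference was 1.15 ± 0.57 (FDR 0.228), and all of its Tat-Cocaine-4OI values lay above those of Control. S100b, a calcium-binding protein of astrocytes, went from 1288, 1114 and 2379 in Control to 259.8, 238 and 508 in Tat-Cocaine and 666, 849.6 and 932 in Tat-Cocaine-4OI, where -0.90 ± 0.29 remained (FDR 0.0708). Of 20 cholesterol synthesis genes, 6 were lower without 4OI, 6 were higher in the direct comparison and 0 were called against Control with 4OI (1 was lower without Control replicate 3). Hmgcs1, which makes HMG-CoA for that pathway, remained at 0.16 ± 0.18 (FDR 0.624).

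A further 567 genes, 371 higher and 196 lower, were called against Control with 4OI and placed in none of these classes, because the call without 4OI or the direct comparison missed the threshold. A further 698 were called without 4OI only, with no direct call. Of 24 activity-regulated genes, 6 were lower and 3 higher than Control (median -0.46), with 2 of the 9 among the genes left changed. Npas4, a transcription factor of neuronal activity, was at 10.9, 6.96 and 4.77 in Control, 2.34, 2.09 and 8.09 in Tat-Cocaine and 0.374, 0.175 and 0.248 in Tat-Cocaine-4OI (-3.33 ± 0.73, FDR 0.00934). Nr4a1, an orphan nuclear receptor of the same kind, fell by 1.56 ± 0.30 (FDR 0.00450). Arc, which acts at synapses, fell by 1.99 (FDR 0.0455), a call lost when any 1 of the Control or Tat-Cocaine-4OI libraries was left out. Leaving out Tat-Cocaine-4OI replicate 2, whose neuron markers were lowest, left 2 lower and 1 higher, leaving out Control replicate 1 left 2 and 2, and leaving out Control replicate 3 or Tat-Cocaine-4OI replicate 3 left 7 and 1 or 5 and 1. Of 21 neuron genes 1 was lower (Tubb3, a neuronal tubulin, -0.93, FDR 0.0486, a call lost when any 1 of the Control libraries was left out), and of 25 glutamate and GABA-A receptor genes 0 passed, with 1 lower without Control replicate 3 or Tat-Cocaine-4OI replicate 1. These counts do not show an unchanged level. The difference from Control was under 0 in 20 of the 21 neuron genes (median -0.486). It was under 0 in all 25 receptor genes (median -0.459). Without Tat-Cocaine-4OI replicate 2 the medians were -0.104 and -0.155.

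**Figure D5:**
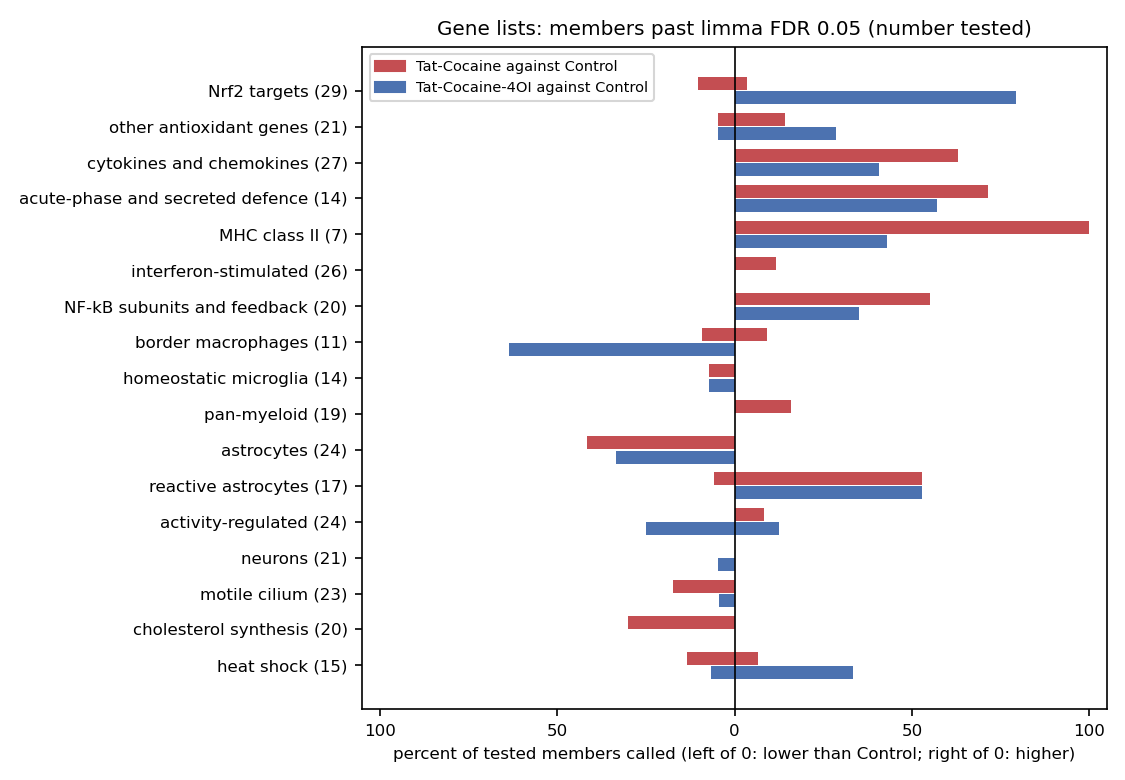
Percent of the tested members of 17 gene lists (x axis, lower than Control to the left of 0, higher to the right) past limma FDR 0.05 in Tat-Cocaine (red) and Tat-Cocaine-4OI (blue) against Control; the number tested is in parentheses. Nrf2 targets (23 of 29 higher) and border macrophage genes (7 of 11 lower) are called mainly with 4OI, while 8 of 14 acute-phase genes are still called with it, against 10 of 14 without.

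To take the Tat response from groups other than Control, Tat-Cocaine and Tat-Cocaine-4OI, genes called in Tat against Cocaine were used. Both groups still enter the spread of the model, so the calls are not independent. The Cocaine group includes replicate 3, with its high oligodendrocyte markers. The 1239 genes higher in Tat had a median difference from Control of 0.64 in Tat-Cocaine and of 0.38 in Tat-Cocaine-4OI. Of them, 582 (47%) were called higher without 4OI and 328 (26.5%) with it, and the direct comparison called 111 back and 11 further. The difference with 4OI was below that without it in 898 (72.5%), a share that was not computed over all genes. The median direct difference was -0.20, beside -0.0058 over all genes tested. The 727 genes lower in Tat had medians of -0.44 and -0.26, with 311 (42.8%) and 163 (22.4%) called lower, 96 called back and 10 further. These pairs of values share the Control libraries.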

How the data were processed

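Poly(A) RNA of rat fetal mixed neuronal cultures was sequenced from strand-marking libraries. Per the labels, the submitters' processing notes name FastQC, Trim Galore 0.4.5, STAR 2.7.2, SAMtools 1.5 and featureCounts of Subread 1.5.3, with the builds mRatBN7.2 and hg38, while the study's methods name an earlier rat build, so the build of the table is uncertain and its coordinates were not used. The authors deposited 1 table of signal values, which are CPM values scaled by TMM library factors (read number relative to library depth). Library sums ran from 930399 to 1046892. The table's columns of the authors' own fold changes and p-values were not used. The steps of low values gave depths of 17.6 to 27.6 M reads, but only 85.2% to 87% of values came out whole within 0.02 of a read, so no count model was run. A value of 0.5 is worth 8.58 to 13.6 reads.

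Values were taken to log2(value + 0.5), which understates the change of low genes. Genes that reached 0.5 in 3 or more of the 21 libraries were analysed with limma 3.58.1 (R 4.3.3, 1 mean per group, empirical Bayes with a trend, Benjamini-Hochberg FDR under 0.05 over all genes tested), and the fit was tested on simulated data. All fold changes are on this scale and ± is the SE.

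Genes were named by rule: among called genes with no overlap of the 3 Tat-Cocaine-4OI and 3 Control libraries and a mean of at least 1, the 10 largest rises and falls, the 8 largest each way of the genes left and added, the 6 largest each way of the genes restored, up to 4 called members of each list by size, and genes the study names. Gclm, Txnrd1, Gsta1, Mrc1, Folr2, Csf1r, Tyrobp, Osgin1, Aox1, Rarres1, Ebi3, LOC691143, Hmgcs1, Nr4a1, Entpd5, Tspo, Ccl5, Fth1, Stab1 and AABR07021972.2 were chosen after their values were seen. A few genes that the rule names are not reported here. The classes, lists and genes were chosen with earlier results of these data known. Promoters are from RefSeq (GRCr8), of which 11104 of the 15609 genes tested matched by symbol. Agt, Aox1, Arc, Cat, Cryab, Gss, Hmgcs1, Hmox1, Mrc1, Pfkfb3, S100b, Tnc, Tnfsf10 and others of the named genes overlap another gene in the RefSeq table, and since the strand setting of the counting is not given in the sources used here, their values are uncertain to that extent. Same-numbered Control and Tat-Cocaine libraries deviated together (correlations 0.51, 0.204 and 0.549), while those of groups with Tat-Cocaine-4OI did so in some replicates only. Libraries of different number were not correlated for reference, so pairing by number was not tested, and the main model has none. Replicates differed beyond counting noise (r 0.961 to 0.996), so none were merged. Alternatives were other pseudocounts, minimum values, scalings, fits, sample weights, a replicate block and leaving out each library. Leaving out Cocaine replicate 3 was added after the data were seen.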

Additional observations from a re-analysis of the deposited data

Results flagged for a closer look

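The change with 4OI differed between Tat-Cocaine and untreated cultures for 2 genes by the limma interaction test across all genes tested. For Retn (resistin, a secreted protein of macrophages and fat cells) the change with 4OI in Tat-Cocaine cultures less that in Control cultures was -3.05 (log2, FDR 0.00459). Retn was listed at 0 in the 3 Control and the 3 4OI libraries, at 2.75, 7.12 and 4.75 in Tat-Cocaine and at 0.117, 0.117 and 0.0991 in Tat-Cocaine-4OI, so no fall with 4OI could be measured in untreated cultures. For LOC691143 the same quantity was -2.26 (FDR 0.00459), with 11.7, 12.2 and 13.5 in Control, 13.9, 14.3 and 14.1 in 4OI, 52.4, 72.3 and 130.1 in Tat-Cocaine and 17.4, 20.1 and 17.3 in Tat-Cocaine-4OI. Both were among the restored genes.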

How the results depend on the processing

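Of 124 named genes called against Control, 61 were called under every alternative run and 63 were lost under at least 1, chiefly the fit to the compared groups only, and 0 of the 124 turned direction. The counts of calls for Tat-Cocaine-4OI against Control (1295), Tat-Cocaine against Control (1463), Tat-Cocaine-4OI against Tat-Cocaine (559), Tat-Cocaine-4OI against Cocaine (1299), genes left (550), added (161) and restored (198) became, in that order, 2273, 2372, 1170, 2211, 1009, 361 and 372 when all 48 libraries were fitted. They became 269, 619, 113, 121, 262, 69 and 52 when the compared groups alone were fitted, which leaves few samples for the spread. In that fit 15 Nrf2 targets, 3 cytokine, 4 acute-phase and 0 MHC class II genes were higher than Control and 4 border macrophage genes lower. With sample weights, which did not converge, they became 5243, 3202, 4556, 1527, 1653, 1706 and 1044. A fold of at least 2 (absolute log2 of at least 1) left 423 of the 1295. Leaving out 1 library at a time gave 672 to 1532, 803 to 1727, 227 to 665, 735 to 1704, 317 to 688, 87 to 192 and 82 to 234.

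Deviations of same-numbered libraries had correlations of 0.724, 0.285 and -0.119 for Control and Tat-Cocaine-4OI, 0.585, -0.203 and -0.16 for Tat-Cocaine and Tat-Cocaine-4OI and 0.556, 0.687 and -0.0741 for Cocaine and Tat-Cocaine-4OI. Replicate 3 was under 0 in each of these, and pairing was not tested against libraries of different number. For Control and Tat-Cocaine every pair was over 0.1. With a replicate block the counts of Tat-Cocaine-4OI against Control and the other results were 2010, 2120, 1051, 1845, 886, 287 and 397.

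Uncalled differences from Control that turned sign were those of Ccl19 (-0.057), Ifi27l2b (-0.54), NEWGENE_620180 (-0.022), Itgam (-0.53) and Il10 (-0.17) with sample weights and Itgam (-0.036) rescaled to an equal sum. Leaving out 1 library gave ranges that crossed 0 for NEWGENE_620180 (-0.14 to 0.51), Aif1 (-0.89 to 0.31), Itgam (-0.49 to 0.41) and Il10 (-0.066 to 0.11). The cause was not tested. Genes under 0.5, worth 8.58 to 13.6 reads, were not tested.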

Other observations

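Several further lists had few members called in Tat-Cocaine-4OI against Control by limma. Over all genes tested 5.42% were higher and 2.88% lower, so 1 call in a list of this size marks little. Of 18 disease-associated microglia genes 5 were higher and 0 lower. Itgax, the integrin CD11c, was at 1.69, 2.45 and 2.59 in Control, 13.5, 10.8 and 11.4 in Tat-Cocaine and 10.1, 33.5 and 16.1 in Tat-Cocaine-4OI (2.74 ± 0.49, FDR 0.00241). Clec7a, the beta-glucan receptor Dectin-1, was at 1.88, 2.01 and 2.54, at 24.7, 12.9 and 19.5 and at 5.48, 7.05 and 6.39 in those groups, 1.37 ± 0.23 above Control (FDR 0.00159) and part of the way back from Tat-Cocaine (-1.48, FDR 0.00115). Of 18 complement genes 3 were higher and 1 lower, which became 1 and 2 without Tat-Cocaine-4OI replicate 2 and 5 and 1 without replicate 1. Of 20 innate sensor genes 2 were higher and 1 lower (2 and 2 without Tat-Cocaine-4OI replicate 2). Of 21 glycolysis genes 4 were higher and 1 lower, the latter call lost without Control replicate 1 or 2, Tat-Cocaine replicate 2 or any 1 Tat-Cocaine-4OI library, with Pfkfb3, which makes an activator of glycolysis, at 0.98 ± 0.17 (FDR 0.00188). Of 18 apoptosis genes 4 were higher, but 0 without Control replicate 1, 2 without Control replicate 3 and 1 without Tat-Cocaine-4OI replicate 2. Of 25 matrix genes 4 were higher and 1 lower (3 and 2 without Control replicate 1), with Tnc (tenascin C) at 1.95 ± 0.33 (FDR 0.00171). Of 18 interneuron and neuropeptide genes 2 were higher and 1 lower, counts that fell to 1 higher or 0 lower when any 1 of several libraries was left out, Pvalb (parvalbumin, a calcium buffer of some interneurons) among the higher at 1.98 ± 0.41 (FDR 0.00713), with 1.27, 1.27 and 0.545 in Control and 4.87, 7.23 and 4.31 in Tat-Cocaine-4OI.

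Among 17 phosphodiesterase genes 1 was higher and 1 lower, the latter call lost without any 1 Control or Tat-Cocaine-4OI library. Among 14 P2 purine receptor genes 1 was higher and 2 lower. The higher call was lost without any 1 Control library, Tat-Cocaine replicate 2 or Tat-Cocaine-4OI replicate 2, and 1 lower call without Control replicate 1 or 3 or Tat-Cocaine-4OI replicate 2 or 3. P2rx1, an ATP-gated channel, fell by 1.92 ± 0.28 (FDR 0.000576). Pde4b was at 0.36 (FDR 0.420), P2rx4 at 0.65 (FDR 0.160), P2ry6 at 0.83 (FDR 0.422) and Vasp at 0.96 (FDR 0.162), none past the threshold. Of 19 oligodendrocyte genes and 13 genes of the mitochondrial genome 0 passed in either direction.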
